A study of Caenorhabditis elegans with 64 samples.

Results

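The 5 genes described here, K07E3.2, K03H6.5, F48B9.8, K09A9.6 and H28G03.2, are the *C. elegans* genes that are both predicted targets of piRNAs reported as reduced in the *simr-1* mutant and depleted of small RNAs in that mutant at 20°C. They were taken by their sequence names from the 37 predicted targets that the study listed, out of 31106 genes in the small RNA tables and 45904 in the mRNA tables. The study built its list from piRNAs that fell in *simr-1* and from a target database with cross-linking support, and then marked the genes whose small RNAs were reduced at 20°C. The genes were therefore chosen by the small RNA difference between *simr-1* and wild-type at 20°C, which is given below as a description without a test. SIMR-1 (C06A5.6) is a tudor domain protein found with the Mutator complex, and the study asked whether its loss changes small RNAs that act downstream of piRNAs.

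Whole day 1 adult worms were collected from N2 wild-type and from the deletion mutant *simr-1(cmp36)*. Both strains were grown at 20°C or for 1, 2, 7 or 10 generations at 25°C, which gave 10 groups with 2 small RNA libraries and 3 mRNA libraries each. A further 14 strains had 1 small RNA library each from 20°C: N2, *simr-1(cmp36)*, *hpo-40(cmp46)*, the double mutant *simr-1(cmp36); hpo-40(cmp46)*, *mut-16(pk710)*, *rde-8(tm2252)*, *nyn-2(tm4844); nyn-1(tm5004)*, *wago-1(tm1414)*, *math-33(ok2974)*, *rsd-2(pk3307)*, *hgo-1(tm4989)*, F37C4.5(*ok3454*), Y57G11C.3(*cmp47*) and C33G3.6(*cmp44*). Each mutant is a single allele.

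piRNAs are short RNAs that guide the Argonaute protein PRG-1 to germline transcripts by imperfect base pairing, in which the seed near the 5′ end of the piRNA counts most. A bound transcript is used as a template by RNA-dependent RNA polymerases, which make antisense secondary siRNAs that are loaded into WAGO Argonautes and keep the gene silent. In *C. elegans* the Mutator complex, scaffolded by MUT-16, is needed for much of this amplification in germ cell granules. Secondary siRNAs carry a 5′ triphosphate, and the size-selected RNA was treated with polyphosphatase so that they could be ligated. piRNA loci were left out of the annotation used for counting, and the levels of the piRNAs themselves were not analysed here.

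The study's list ties the 5 genes to 4 piRNAs, all encoded on chromosome IV. Their sequences are shown because they are the guides that brought these genes onto the list, and the capitals mark the seed, bases 2 to 8 from the 5′ end. The genome sequence is RefSeq's WBcel235, written 5′ to 3′ with T for U. K07E3.2 was predicted from 21ur-1575 (chrIV:16369349-16369369, minus strand), K03H6.5 from 21ur-3395 (chrIV:14596167-14596187, plus strand), F48B9.8 from 21ur-3968 (chrIV:14225677-14225697, minus strand), and both K09A9.6 and H28G03.2 from 21ur-5755 (chrIV:14719219-14719239, minus strand).
21ur-1575: tGAAGCACtgatccggttaaa
21ur-3395: tTGATGATtgaaagttgtgcg
21ur-3968: tGGTCTGAaagtgagtaaaca
21ur-5755: tATTTTCTttatcatccgcgc

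For each gene the best antisense match of its piRNA was searched in the spliced transcripts, and all 5 matches lay in coding sequence. The matched stretches are shown, 5′ to 3′ on the gene's own strand, so that the pairing can be read against the guides. Capitals mark the bases that face the seed. These are the best matches by fewest unpaired bases and then fewest G:U pairs, and whether they are the sites the study's database predicted was not tested.
K07E3.2 facing 21ur-1575, chrX:8104861-8104881, plus strand: tttcaccagttcaGTGCTTTc
K03H6.5 facing 21ur-3395, chrIV:1530467-1530487, minus strand: cgagcgactcttgATCATCAa
F48B9.8 facing 21ur-3968, chrX:2174163-2174813, minus strand, joined across an intron: tgattacttattcACAGGCCc
K09A9.6 facing 21ur-5755, chrX:15582576-15582596, plus strand: atgatgatgatgaAGAAGATg
H28G03.2 facing 21ur-5755, chrX:5214446-5214466, plus strand: gcgtgggagcttgAGAAAATc

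The K03H6.5 stretch was the closest match, with 2 of 21 bases unpaired, 4 G:U pairs and a fully Watson-Crick seed. K09A9.6 had 3 unpaired bases and 4 G:U pairs, 1 of them in the seed. K07E3.2 had 4 unpaired bases with 1 G:U pair, which was in the seed, and H28G03.2 had 4 unpaired bases and 3 G:U pairs, none of either in the seed. F48B9.8 was the weakest at the seed, with 4 unpaired bases of which 1 faced base 8 of the piRNA, and 3 G:U pairs, 1 of them in the seed. Matches this good are not rare in the transcriptome for every guide. Of 19983 protein-coding genes searched, a match at least as good was found in 33 for 21ur-3395 against K03H6.5 (0.165%), in 123 for K07E3.2 (0.616%), in 217 for K09A9.6 (1.09%), in 754 for F48B9.8 (3.77%) and in 1096 for H28G03.2 (5.48%). The guide shared by K09A9.6 and H28G03.2 is also the listed guide of 5 genes that are not among the 5 described, among them *dys-1* and *hyls-1*, and 21ur-1575 is also the listed guide of *jmjd-3.2*.

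Before the results, some features of the libraries bear on every comparison. Reads counted on genes ranged from 2835252 to 12893224 in the replicated small RNA libraries, from 2392511 to 50329478 in the single ones and from 8055126 to 38633453 for mRNA. Small RNAs at *simr-1* itself lay between 62.8 and 288 reads per 1000000 mapped reads (RPM) in the 10 wild-type libraries and between 21.2 and 35.2 RPM in the 10 *simr-1* libraries, and its mRNA between 45.3 and 230.2 against 6.23 and 29.1 normalised counts per 1000000 (CPM) in 15 libraries each. None of the 12 germline, 12 oocyte, 12 sperm, 6 intestine and 8 muscle, skin and neuron markers was at 0 throughout any mRNA group. The 12 sperm entries carry 11 names, since *ssp-9* is entered more than once. Wild-type at generations 1 and 2 and *simr-1* at generation 2 stood apart from the rest in oocyte marker mRNA and in the share of small RNAs on genes. The summed mRNA of the 12 oocyte markers lay between 3133 and 3704 CPM, between 3051 and 5097 CPM and between 4500 and 5531 CPM in these groups, against 10444 to 13006 CPM in all others. The share of mapped small RNAs that fell on genes was 42.4% to 43.5%, 41.1% to 43.2% and 45.3% to 50.8% in the same groups, against 58.7% to 69.4% elsewhere. The summed mRNA of the sperm markers lay between 146 and 209 CPM in *simr-1* at generation 2, against 34.6 to 42.3 CPM in wild-type, and between 46.5 and 62.8 CPM against 23.3 to 28.4 CPM at generation 7. Summed germline marker mRNA was lower in wild-type than in *simr-1* at generations 1 and 10. It lay between 4120 and 4349 CPM against 7437 to 7628 CPM at generation 1, and between 4440 and 4942 CPM against 6370 to 6687 CPM at generation 10. At generation 2 it was lowest in both genotypes, with 2553 to 3197 CPM in wild-type and 2517 to 2968 CPM in *simr-1*. Small RNAs at the intestine markers in wild-type at generation 10, between 479 and 698 RPM, were the highest of all groups. The part of these markers in comparisons with wild-type of generations 1, 2 and 10 was not tested. In whole worms fewer cells of a type and less RNA per cell cannot be told apart.

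At 20°C, all 5 genes had fewer small RNAs in both *simr-1* libraries than in both wild-type libraries, by the choice of the genes. K07E3.2 (WBGene00019491, chrX:8104305-8107557, plus strand) is annotated as a serine/threonine protein kinase, an enzyme class that phosphorylates other proteins. Its small RNAs were at 122 and 119 RPM in wild-type and at 52.8 and 50.0 RPM in *simr-1*, or 42.6% of the wild-type mean. K03H6.5 (WBGene00019370, chrIV:1527221-1536398, minus strand) encodes a protein with the profile of the rhodopsin-like family of G protein-coupled receptors, membrane proteins that pass outside signals into the cell. It was at 45.8 and 41.5 RPM in wild-type and at 4.41 and 3.79 RPM in *simr-1*, or 9.40%. This was the deepest loss of the 5.

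F48B9.8 (WBGene00018593, chrX:2173890-2176411, minus strand) encodes an RDD domain protein, a domain found in membrane proteins. Its small RNAs were at 36.8 and 32.1 RPM in wild-type and at 6.55 and 6.13 RPM in *simr-1*, or 18.4%. K09A9.6 (WBGene00010703, chrX:15577470-15586803, plus strand) has an aspartyl/asparaginyl hydroxylase domain, which adds hydroxyl groups to amino acids of other proteins. It was at 17 and 24.3 RPM in wild-type and at 4.34 and 3.79 RPM in *simr-1*, or 19.7%. H28G03.2 (WBGene00019250, chrX:5205760-5216230, plus strand) is annotated as WW domain-binding protein 11, which in human cells is linked to pre-mRNA splicing. It was at 32.8 and 35.7 RPM in wild-type and at 13 and 13.7 RPM in *simr-1*, or 39.1%.

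In this contrast 5.64% of 15164 genes tested were called depleted, which for these 5 is printed only as the setting of the choice. K07E3.2 and H28G03.2 lay just inside the study's limit, 50% of wild-type. Just outside it among the other predicted targets were *znf-593*, a predicted zinc finger gene (174 and 179 RPM in the wild-type libraries against 95 and 98.9 RPM in *simr-1*, 54.9%), and *jmjd-3.2*, a gene of the histone demethylase family JMJD3 (54.3 and 57 RPM, 30.7 and 34.6 RPM, 58.7%). The other 32 predicted targets had log2 fold changes from -0.95 to 2.15 with a median of 0.07, and 9 of the 32 had a lower mean in *simr-1*. *dys-1*, which encodes dystrophin and shares its guide with K09A9.6 and H28G03.2, was at the upper end with 471% of wild-type.

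**Figure D1:**
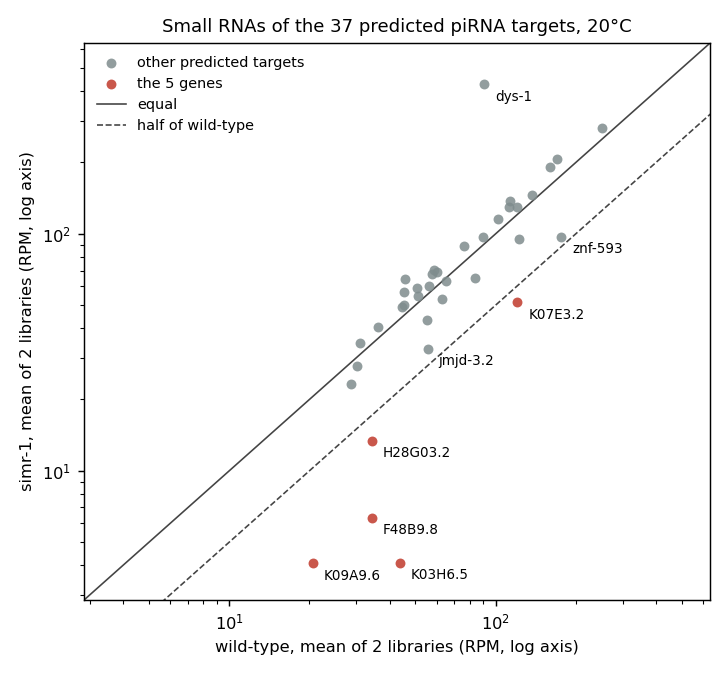
Mean small RNA level of each of the 37 predicted piRNA targets at 20°C in 2 wild-type libraries (horizontal axis, RPM, log axis) and 2 *simr-1* libraries (vertical axis, RPM, log axis), with lines of equal level and of 50%. The 5 genes, in red, lie below the dashed line by the way they were chosen, *znf-593* and *jmjd-3.2* lie just above it, and *dys-1* lies far above the line of equal level.

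The choice did not use chromosome, length or mRNA. Of the 5 genes, 4 are on the X chromosome and K03H6.5 is on IV. Of the other 32 predicted targets 1 is on X (3.13%). Among the 6966 genes that reached 10 RPM at 20°C in wild-type or mutant, 470 are on X (6.75%), and among the 851 other genes called depleted at 20°C, 204 are on X (24%). All 5 are protein coding, as are 82.8% of the genes called depleted. No read was shared with another gene at any of the 5 in any of the 34 small RNA libraries, and the antisense noncoding genes annotated within K09A9.6 and H28G03.2 had at most 1 read in a library. The counting did not use strand.

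Levels were compared between the genes per kilobase of exon. In wild-type at 20°C, small RNAs were highest at K07E3.2, with a mean of 50.1 RPM per kilobase, followed by F48B9.8 (36.1), K03H6.5 (33.2), H28G03.2 (12) and K09A9.6 (6.32). The small RNA levels of F48B9.8 and K03H6.5 per kilobase overlapped between libraries and were not told apart. The order of mRNA was another. In wild-type at 20°C, mRNA per kilobase was highest at F48B9.8 (8.77 CPM per kilobase) and H28G03.2 (7.84), then K07E3.2 (4.57) and K09A9.6 (2.36), and K03H6.5 was lowest at 0.532 CPM per kilobase.

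At 25°C the libraries were independent of the choice. In every one of the 4 generations the *simr-1* libraries lay below the wild-type libraries without overlap at K07E3.2, K03H6.5, F48B9.8 and H28G03.2. At K09A9.6 the genotypes overlapped in all 4. The share of all genes with such an order of libraries was not counted, so it is given as a description only. Each contrast was fitted over all genes with the quasi-likelihood test of edgeR, and a call required an adjusted p (Benjamini-Hochberg) no higher than 0.05, a 2-fold or larger difference, and 10 RPM or more in wild-type or the mutant. At generations 2, 7 and 10 the gene had to pass against both the matching wild-type and wild-type of generation 1.

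Of the 5 genes 4, all but K09A9.6, were depleted at generation 1, where 9.18% of all genes tested were. At generation 2 they were K07E3.2, K03H6.5 and F48B9.8 (6.7% of all genes), at generation 7 K07E3.2 and K03H6.5 (6.34%), and at generation 10 K07E3.2 and H28G03.2 (7.48%). K07E3.2 was the only gene of the 5 called in all 4 generations, with the TMM scaling. Of the other 851 genes depleted at 20°C, 69.4%, 62.6%, 53.9% and 44.3% were called depleted at generations 1, 2, 7 and 10, so the falling count is seen in that larger group too. Against the matching wild-type only, 4, 2 and 2 of the 5 genes were called at generations 2, 7 and 10, beside 8.11%, 8.06% and 12.4% of all genes.

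The scaling decided calls at generations 1 and 2, in which the wild-type libraries had their smallest shares of small RNAs on genes. When libraries were scaled by their size alone, only K03H6.5 and F48B9.8 were called depleted at either generation, and the median of all genes moved up by 0.47 and 0.37 on the log2 scale. K07E3.2 was then at -0.92 and -0.88 and was called at generations 7 and 10 only. With wild-type of generation 2 as the control for generation 1, chosen after seeing the data, the same 4 genes were called. At generation 10 the call of H28G03.2 was lost without wild-type replicate 2 or without *simr-1* replicate 1, which left 1 gene called. Small RNAs at the 6 intestine markers moved in the same direction. By the same rule 4, 4, 3 and 2 of them were depleted at generations 1, 2, 7 and 10, and their summed level at generation 1 was between 153 and 160 RPM in wild-type and between 21.8 and 25.5 RPM in *simr-1*. None of the 12 germline markers was depleted in any generation, and the part of the intestine markers in the counts of the 5 genes was not tested.

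**Figure D2:**
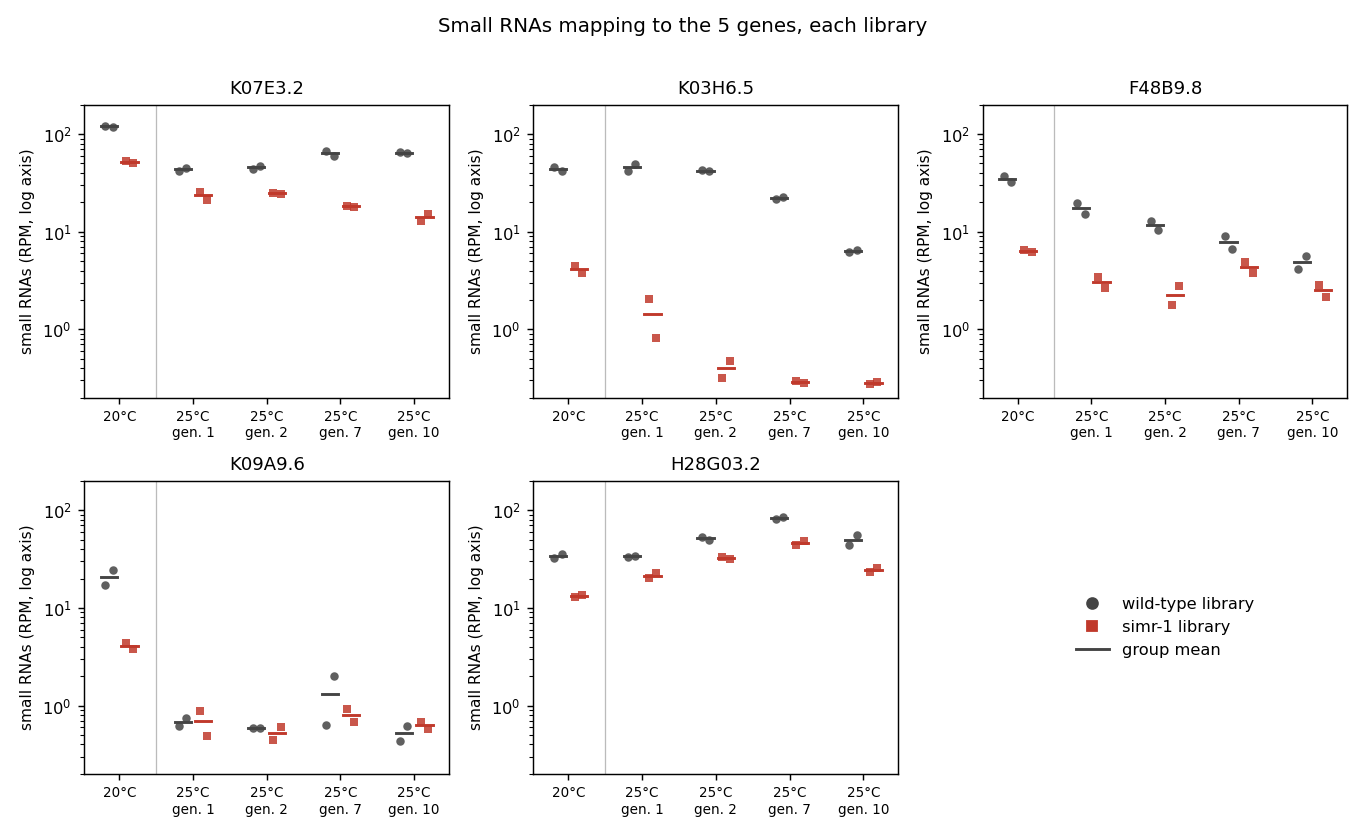
Small RNA level of each gene in each of 20 libraries (RPM, log axis) at 20°C and at generations 1, 2, 7 and 10 of growth at 25°C, with wild-type as dark circles, *simr-1* as red squares and bars for the means of 2 libraries. K03H6.5 and F48B9.8 fall in wild-type towards generation 10, K09A9.6 is near or below 1 RPM in most libraries at 25°C, and H28G03.2 is highest at generation 7.

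K07E3.2, the kinase gene, kept small RNAs in both genotypes. Wild-type was at 42.3 and 44.7 RPM at generation 1, 43.6 and 47.5 RPM at generation 2, 67.0 and 59.9 RPM at generation 7 and 65.1 and 64.2 RPM at generation 10. *simr-1* was at 25.6 and 21.3 RPM, 25.0 and 24.6 RPM, 18.4 and 17.8 RPM, and 13 and 15.1 RPM at the same generations. In RPM the 2 genotypes thus moved apart, with wild-type higher in the later generations and *simr-1* lower. With TMM scaling wild-type did not rise from generation 1 to generation 10 (log2 fold change -0.09, adjusted p = 0.4, edgeR), while *simr-1* was lower by -0.55. On the RPM scale *simr-1* was at 54%, 54.4%, 28.5% and 21.7% of wild-type. The fitted log2 fold change was -1.40 (SE 0.097, adjusted p = 1.77e-07, edgeR) at generation 1, -1.25 (SE 0.133, adjusted p = 4.76e-06, edgeR) at generation 2, -1.89 (SE 0.080, adjusted p = 7.36e-12, edgeR) at generation 7 and -2.27 (SE 0.099, adjusted p = 1.11e-08, edgeR) at generation 10. Wild-type levels at 20°C, about 121 RPM, were above those of every 25°C generation, while generations 1 and 2 overlapped each other, as did generations 7 and 10.

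K03H6.5, the receptor gene, showed the largest differences. Wild-type was at 42.0 and 49.5 RPM at generation 1 and at 43.0 and 41.6 RPM at generation 2, overlapping the level at 20°C. It was then at 21.4 and 22.5 RPM at generation 7 and at 6.19 and 6.55 RPM at generation 10, each apart from the other generations. *simr-1* was at 2.03 and 0.815 RPM at generation 1, 0.316 and 0.479 RPM at generation 2, 0.292 and 0.280 RPM at generation 7 and 0.273 and 0.287 RPM at generation 10. These last levels rest on very few reads. Over both libraries there were 31, 13, 11 and 4 reads at generations 1, 2, 7 and 10, against 609, 715, 405 and 110 in wild-type.

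With the reads of both libraries added, K03H6.5 in *simr-1* was at 2.57% of wild-type at generation 1 (exact 95% interval 1.73% to 3.69%), 0.948% at generation 2 (0.502% to 1.63%), 1.30% at generation 7 (0.644% to 2.35%) and 4.41% at generation 10 (1.2% to 11.6%). These intervals cover counting error only. The fitted log2 fold changes were -5.73 (SE 0.211), -7.05 (SE 0.224), -6.31 (SE 0.221) and -4.49 (SE 0.379), with adjusted p-values between 7.23e-13 and 2.88e-06 (edgeR). At generation 10 the gene was not called because neither genotype reached 10 RPM.

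F48B9.8, the RDD domain gene, fell in wild-type with each sampled generation. Wild-type was at 19.6 and 15.2 RPM at generation 1, 13 and 10.4 RPM at generation 2, 8.94 and 6.71 RPM at generation 7 and 4.12 and 5.68 RPM at generation 10, with no overlap between neighbouring time points. *simr-1* was at 3.43 and 2.66 RPM, 1.77 and 2.75 RPM, 4.87 and 3.75 RPM, and 2.87 and 2.15 RPM. Thus the *simr-1* level stayed between 1.77 and 4.87 RPM while the wild-type level came down towards it. The log2 fold change was -3.05 (SE 0.183, adjusted p = 5.6e-08, edgeR) at generation 1 and -2.70 (SE 0.258, adjusted p = 1.56e-06, edgeR) at generation 2. At generations 7 and 10 it was -0.92 (SE 0.194, adjusted p = 0.00103, edgeR) and -1.01 (SE 0.28, adjusted p = 0.00985, edgeR), at levels under 10 RPM in both genotypes.

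K09A9.6, the hydroxylase domain gene, had few small RNAs in either genotype at 25°C. Wild-type was at 0.614 and 0.738 RPM at generation 1, 0.584 and 0.594 RPM at generation 2, 0.630 and 2.01 RPM at generation 7 and 0.434 and 0.618 RPM at generation 10. The wild-type mean at generation 1 was 3.27% of its mean at 20°C and the *simr-1* mean 16.9% of its own, values given as a description since the 20°C libraries chose the gene. *simr-1* was at 0.888 and 0.489 RPM, 0.442 and 0.599 RPM, 0.926 and 0.672 RPM, and 0.683 and 0.574 RPM. The libraries held between 4 and 21 reads each at 25°C, and a difference between genotypes was not detectable at this depth. At generation 1 the log2 fold change was -0.61 (SE 0.578, adjusted p = 0.368, edgeR), and *simr-1* was at 89.9% of wild-type over the added reads with an exact 95% interval of 37.4% to 231%. At generation 7 the fitted log2 value was -0.89 (SE 0.461, adjusted p = 0.13, edgeR), and its sign turned, to 0.27, when wild-type replicate 2 with its 21 reads was left out.

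H28G03.2, the gene of the splicing-linked protein, had its highest levels in the middle of the series. Wild-type was at 33.6 and 34 RPM at generation 1, overlapping 20°C, at 53.8 and 49.4 RPM at generation 2, 81.9 and 85.9 RPM at generation 7 and 43.7 and 55.7 RPM at generation 10. *simr-1* was at 20.3 and 22.6 RPM, 33.2 and 31.6 RPM, 43.8 and 48.4 RPM, and 23.2 and 25.4 RPM. Both genotypes were highest at generation 7, with means of 83.9 and 46.1 RPM, and wild-type at generations 2 and 10 overlapped. The log2 fold change lay close to the 2-fold limit in every generation. It was -1.10 (SE 0.093, adjusted p = 8.96e-07, edgeR) at generation 1, -1.03 (SE 0.119, adjusted p = 1.02e-05, edgeR) at generation 2, -0.96 (SE 0.065, adjusted p = 3.34e-09, edgeR) at generation 7 and -1.09 (SE 0.113, adjusted p = 1.41e-05, edgeR) at generation 10. It was not called at generation 2 because it differed from wild-type of generation 1 by -0.46 only. Whether the gene was called thus turned on small differences around 2-fold, and its direction was lower in *simr-1* in all libraries.

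**Figure D3:**
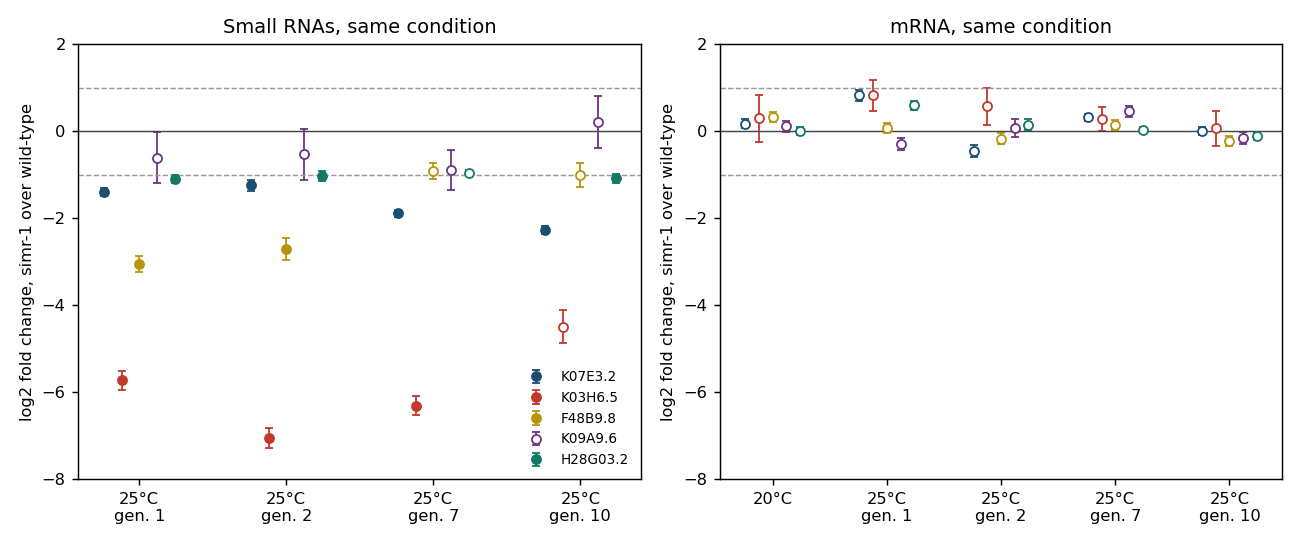
Fitted log2 fold change of *simr-1* over wild-type of the same condition for small RNAs at 25°C (left) and for mRNA (right), each point with its standard error. Filled points passed the limits against wild-type of the same condition (adjusted p at most 0.05, 2-fold and, for small RNAs, 10 RPM), and dashed lines mark 2-fold. Small RNA points reach -7.05 at K03H6.5, and every mRNA point is open and within 2-fold.

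The change over generations was then tested within each genotype. In wild-type, K03H6.5 and F48B9.8 were lower at generation 10 than at generation 1, by log2 fold changes of -3.51 (SE 0.134, adjusted p = 7.77e-09, edgeR) and -2.49 (SE 0.199, adjusted p = 2.79e-06, edgeR). The same direction was called for 5.47% of all genes. Both were also called against generation 2, a control chosen after seeing the data, at -3.40 and -1.91. K07E3.2 (-0.09, adjusted p = 0.4, edgeR), H28G03.2 (-0.11, adjusted p = 0.416, edgeR) and K09A9.6 (-1.01, adjusted p = 0.207, edgeR) were not called. In *simr-1* none of the 5 was called, where 5.12% of all genes were called in either direction. K07E3.2 was lower there by -0.55 (SE 0.131, adjusted p = 0.00861, edgeR), a change under 2-fold, and K03H6.5 by -1.87 (adjusted p = 0.0917, edgeR).

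The difference between the *simr-1* effects at generations 10 and 1 was tested with an interaction term. It was called for F48B9.8, at +2.17 (SE 0.374, adjusted p = 1.38e-04, edgeR), where 10.7% of all genes were called in either direction and 3.49% higher. The *simr-1* effect was smaller at generation 10, in which wild-type was at 4.90 RPM and *simr-1* at 2.51 RPM, than at generation 1, with 17.4 and 3.04 RPM. K07E3.2 had a larger *simr-1* effect at generation 10, by -0.73 (SE 0.145, adjusted p = 5.32e-04, edgeR), under the 2-fold limit, and 38.6% of all genes passed the adjusted p threshold at any size. With generation 2 in place of generation 1 this value was -1.02 (adjusted p = 3.49e-04, edgeR) and passed the limit, and F48B9.8 was at +1.69 (adjusted p = 0.0136, edgeR). The term was not past the threshold for K03H6.5 (+1.36, adjusted p = 0.291), K09A9.6 (+0.95, adjusted p = 0.426) or H28G03.2 (+0.16, adjusted p = 0.466), all by edgeR.

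The mRNA of the 5 genes, which the choice did not use, was compared in the same way without the RPM limit. None of the 5 was called different between *simr-1* and wild-type at 20°C or at generations 1, 2, 7 or 10, where 3.1%, 29.7%, 17.7%, 9.33% and 11.2% of all genes were called in either direction. At generation 1, however, the adjusted p was under the threshold for K07E3.2 and H28G03.2 with changes under 2-fold. K07E3.2 mRNA was at 7.97, 8.98 and 7.29 CPM in wild-type and at 14.5, 15.8 and 11.7 CPM in *simr-1*, without overlap. The log2 fold change was 0.83 (SE 0.126, adjusted p = 7.47e-06, edgeR). H28G03.2 mRNA was at 14.5, 14.6 and 14.2 CPM in wild-type and at 19.7, 20.4 and 23 CPM in *simr-1*, a log2 fold change of 0.59 (SE 0.096, adjusted p = 1.6e-05, edgeR).

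Neither difference was past the threshold with wild-type of generation 2 as the control. That comparison differs in generation as well as genotype, so it cannot tell what the differences came from. Against wild-type of generation 2, a control chosen after seeing the data, K07E3.2 mRNA differed by 0.14 (adjusted p = 0.414, edgeR) and H28G03.2 mRNA by 0.20 (adjusted p = 0.189, edgeR), while K09A9.6 mRNA was at -0.86 (adjusted p = 0.00447, edgeR). Oocyte marker mRNA was also lower in wild-type at generation 1 than in *simr-1*, with 11 of the 12 markers called higher in *simr-1*, and its part in the mRNA differences was not tested. Without the 2-fold limit, 0, 2, 1, 2 and 0 of the 5 genes passed the adjusted p threshold at 20°C and at generations 1, 2, 7 and 10, beside 22.1%, 68.5%, 42.8%, 27.1% and 46.2% of all genes.

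In the other conditions mRNA differed little. K07E3.2 was at 14.7, 12.3 and 11.6 CPM in wild-type and at 9.74, 8.14 and 9.14 CPM in *simr-1* at generation 2, a log2 fold change of -0.47 (SE 0.136, adjusted p = 0.019, edgeR). At generation 7 it was at 11.6, 10.7 and 11.9 CPM against 14.3, 13.8 and 15.0 CPM (0.32, SE 0.083, adjusted p = 0.0235, edgeR), and at generation 10 at 18.9, 20.7 and 18.5 CPM against 19.4, 18.3 and 20.5 CPM (0.00, SE 0.091, adjusted p = 0.997, edgeR). Its direction was thus higher, lower and higher in *simr-1* at generations 1, 2 and 7, while its small RNAs were lower in each. Of the 12 sperm marker entries, under 11 names, 10 at generation 2 and 7 at generation 7 were called higher in *simr-1* mRNA. Both counts hold *ssp-9* more than once. The part of these markers in the mRNA differences of these generations was not tested. At 20°C K07E3.2 was at 10.3, 11 and 11.7 CPM in wild-type and at 12.4, 13.1 and 11.9 CPM in *simr-1* (0.17, SE 0.097, adjusted p = 0.242, edgeR).

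K03H6.5, with the deepest small RNA loss, had the least mRNA. At 20°C it was at 1.03, 1.07 and 0 CPM in wild-type and at 0.588, 0.984 and 1.45 CPM in *simr-1*, and it reached 1.45 CPM at most in the 30 libraries. The groups overlapped except at generation 1, with 0.682, 0.382 and 0.598 CPM in wild-type and 1.24, 0.806 and 0.813 CPM in *simr-1* (log2 fold change 0.82, SE 0.362, adjusted p = 0.051, edgeR). At generation 10 the wild-type libraries were at 0.607, 0.756 and 0.860 CPM and the *simr-1* libraries at 0.363, 0.666 and 1.22 CPM. The standard errors of its log2 fold changes, 0.277 to 0.531, were the widest of the 5 genes, so a change of the size seen at other genes could be missed.

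F48B9.8 mRNA lay between 7.42 and 13.4 CPM in all 30 libraries. At 20°C it was at 7.42, 8.44 and 9.23 CPM in wild-type and at 10.1, 9.68 and 11.6 CPM in *simr-1*, without overlap, and the log2 fold change of 0.33 (SE 0.119, adjusted p = 0.0666, edgeR) did not pass the test. At generation 10, when small RNAs had fallen to 14.2% of their wild-type level at 20°C, wild-type mRNA was at 11.3, 12 and 13.4 CPM. The *simr-1* libraries were then at 10.2, 9.42 and 11.7 CPM (-0.23, SE 0.118, adjusted p = 0.125, edgeR).

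K09A9.6 mRNA was at 7.65, 7.31 and 8.14 CPM in wild-type at 20°C and at 5.45, 6.18 and 5.14 CPM at generation 1, where its small RNAs were at 3.27% of the earlier level. The wild-type change was -0.36 (SE 0.134, adjusted p = 0.0226, edgeR). In *simr-1* the mRNA was at 7.79, 9.92 and 7.39 CPM at 20°C and at 4.62, 4.11 and 4.39 CPM at generation 1, a change of -0.90 (SE 0.143, adjusted p = 6.59e-05, edgeR) that was under 2-fold. At generation 2, where small RNAs were as low, the mRNA was at 10.2, 5.12 and 8.89 CPM in wild-type and at 8.70, 8.19 and 7.57 CPM in *simr-1*, and wild-type differed from 20°C by 0.14 (adjusted p = 0.591, edgeR), a comparison chosen after seeing the data. The lower mRNA of generation 1 was thus not seen at generation 2. Between genotypes it differed at generation 7, with 5.10, 5.99 and 5.72 CPM in wild-type and 8.83, 6.66 and 7.82 CPM in *simr-1* (0.46, SE 0.128, adjusted p = 0.0295, edgeR).

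H28G03.2 had the most mRNA counts of the 5 genes. It was at 22.7, 21.9 and 22.5 CPM in wild-type and at 23.8, 23.8 and 20.6 CPM in *simr-1* at 20°C (0.00, SE 0.085, adjusted p = 0.984, edgeR). At generation 7, where its small RNAs were highest, mRNA was at 24.2, 22.9 and 22.9 CPM in wild-type and at 24.4, 23.9 and 23.5 CPM in *simr-1* (0.03, SE 0.067, adjusted p = 0.783, edgeR). The wild-type libraries of generation 1, between 14.2 and 14.6 CPM, were the lowest 3 of all 30.

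**Figure D4:**
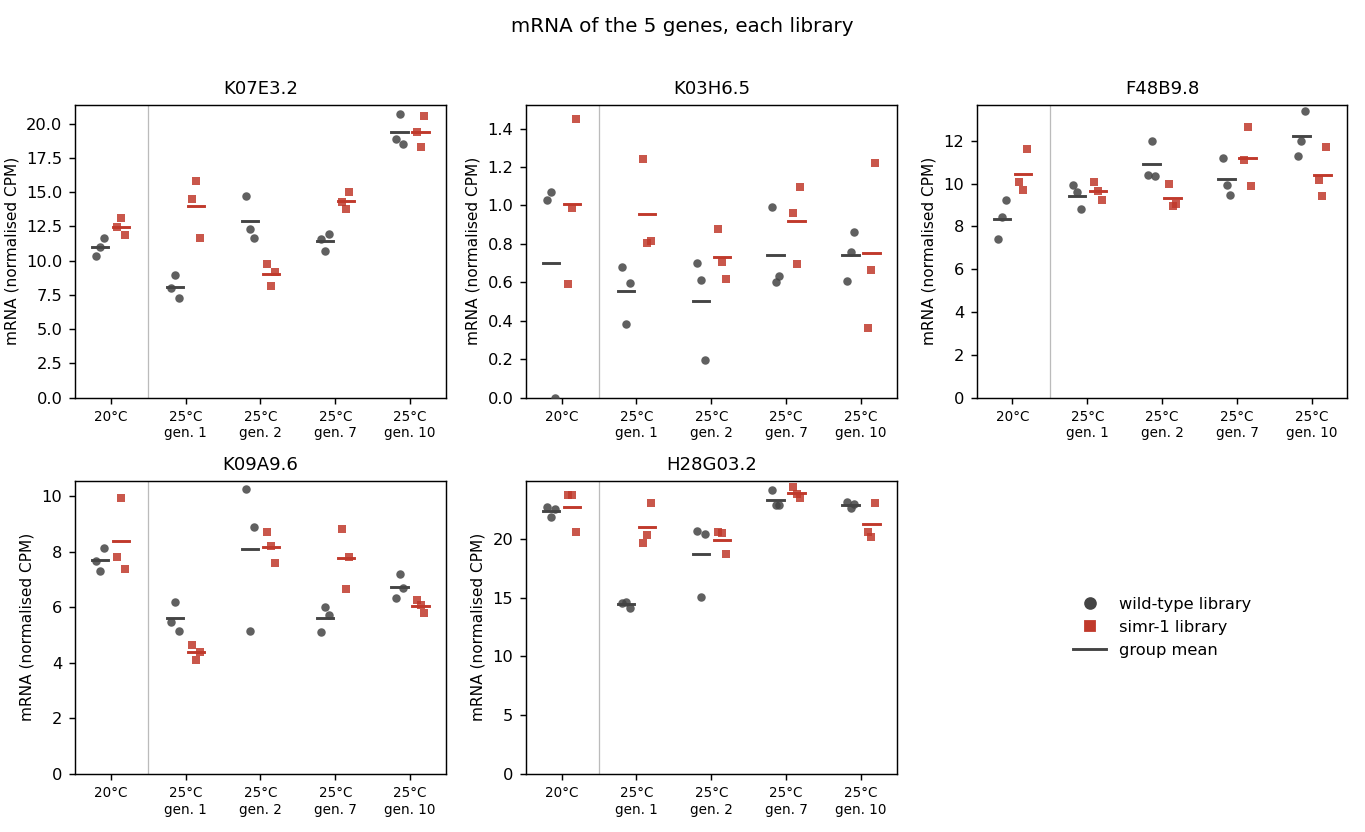
mRNA level of each gene in each of 30 libraries (TMM-normalised CPM, linear axes that start at 0 and differ between panels), with wild-type as dark circles, *simr-1* as red squares and bars for the means of 3 libraries. K03H6.5 stays at or below 1.45 CPM, and the wild-type libraries of generation 1 lie below the *simr-1* libraries at K07E3.2 and H28G03.2.

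Over generations, K07E3.2 mRNA was called higher in wild-type at generation 10 than at generation 1, by 1.15 (SE 0.106, adjusted p = 1.09e-07, edgeR), where 31.1% of all genes were called in either direction and 16.6% higher. Against generation 2 the difference was 0.34 (adjusted p = 0.0345, edgeR) and not called. H28G03.2 rose by 0.55 (SE 0.082, adjusted p = 2.27e-05, edgeR) from generation 1, under 2-fold, and by 0.05 (adjusted p = 0.735, edgeR) from generation 2. None of the 5 was called in *simr-1* between generations 10 and 1 (13.8% of all genes), in wild-type between generation 1 and 20°C (41.1%) or in *simr-1* in that step (13.7%). Without the 2-fold limit these counts were 2 in wild-type and 2 in *simr-1* between generations 10 and 1 (65.8% and 43.4% of all genes), and 4 and 1 between generation 1 and 20°C (74.1% and 43.2%). The interaction term for mRNA called none of the 5 at the 2-fold limit (18.6% of all genes in either direction). It was past the adjusted p threshold for K07E3.2, at -0.67 (SE 0.156), and H28G03.2, at -0.55 (SE 0.127), both with an adjusted p of 9.38e-04 (edgeR), beside 44.9% of all genes. With generation 2 in place of generation 1, K07E3.2 turned to +0.63 (SE 0.166, adjusted p = 0.00648, edgeR) and H28G03.2 was at -0.09 (adjusted p = 0.705, edgeR). Of the 12 oocyte markers 11 were also called lower by the term with generation 1.

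The other 32 predicted targets were followed under the same rule. At generation 1, 2 of them, *znf-593* and *phyh-1*, a predicted phytanoyl-CoA hydroxylase gene, were called depleted and 16 enriched, where 17.5% of all genes were enriched. At generation 2 the same 2 were depleted, and at generations 7 and 10 they were joined by *dmsr-3*, a predicted neuropeptide receptor gene, with none enriched after generation 1 (1.03%, 0.712% and 0.743% of all genes at generations 2, 7 and 10). Thus *znf-593*, which missed the limit at 20°C by little, was called in all 4 generations, from -1.16 (SE 0.069) to -2.06 (SE 0.074) on the log2 scale. Its neighbour outside the limit, *jmjd-3.2*, was not called in any by this rule. Its log2 fold change at generation 1 was -1.67 (adjusted p = 1.35e-05, edgeR), at levels under 10 RPM. It was -0.003 and -0.78 at generations 2 and 7. At generation 10 it was -3.11 (adjusted p = 3.82e-08, edgeR), called against the matching wild-type but not against wild-type of generation 1. *dmsr-3* small RNAs differed by -4.93 (SE 0.102, adjusted p = 6.33e-11, edgeR) at generation 10. For *phyh-1* the mRNA was called higher in *simr-1* at generations 2, 7 and 10, by 2.97 (SE 0.24), 1.99 (SE 0.212) and 1.51 (SE 0.238), with its small RNAs depleted in each. The *cyb-2.1* gene, which encodes a B-type cyclin, was called higher at generation 1 in small RNAs (1.36) and in mRNA (1.42).

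Genes of the pathway were counted over whole lists, which were chosen with earlier results of these data known. None of the 11 genes of piRNA production was called depleted at any 25°C generation except *parn-1*, which trims piRNAs at their 3′ end and was depleted of small RNAs in all 4 generations. At generation 1, where 17.5% of all genes were enriched, 5 of the 11 were, *prg-1*, *prde-1*, *tofu-4*, *tofu-5* and *tofu-6*. The mRNA of *parn-1* was called higher in *simr-1* at generations 1, 7 and 10, where 7.98%, 7.83% and 2.24% of all genes were, and no other gene of this list was called in mRNA between the genotypes. Of 19 genes of secondary siRNA production, 11 were enriched in small RNAs at generation 1 and none was called at generations 2, 7 and 10, where enrichment was rare over all genes. In mRNA, *hrde-1* and *wago-1*, which encode WAGO Argonautes, were called higher at generation 1. All 12 germline markers were also enriched in small RNAs at generation 1, with a summed level that lay between 698 and 724 RPM in wild-type and between 2624 and 2705 RPM in *simr-1*, and their part in these counts was not tested.

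In the 14 single libraries from 20°C there was no replicate, and levels are given as percent of the wild-type library after adding 0.5 RPM to each, without a test. The wild-type library itself was at 94.3 RPM at K07E3.2, 81.2 RPM at K03H6.5, 40.3 RPM at F48B9.8, 27.5 RPM at H28G03.2 and 7.75 RPM at K09A9.6. It differed from the replicated wild-type at 20°C by nearly as much as some mutants did, with K03H6.5 at 81.2 against a mean of 43.6 RPM and K09A9.6 at 7.75 against 20.7 RPM. Small changes in these libraries, and all those at K09A9.6, are therefore hard to read.

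In *mut-16*, the Mutator scaffold mutant, all 5 genes were at 50% of wild-type or lower. They stood at 17.2% (K07E3.2), 14.9% (K03H6.5), 17.6% (F48B9.8) and 32.9% (H28G03.2), where the median of the 6689 genes that reached 10 RPM in the wild-type library was 135% and 28.3% of these genes were at 50% or lower. K09A9.6 had 0 reads in this library, which allows a level of up to 0.689 RPM, or 8.89% of the wild-type library. The double mutant *simr-1; hpo-40* also had all 5 at or under 50%, from 5.66% at K03H6.5 to 35.6% at K07E3.2, beside 15.2% of all genes. K09A9.6, at 15.2% there, rested on 4 reads, and without the added 0.5 RPM it was at 9.69% (exact 95% interval 2.63% to 24.9%).

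The *simr-1* library had 3 of the 5 at or under 50%: K03H6.5 at 5.13%, F48B9.8 at 23.5% and H28G03.2 at 36.3%. K07E3.2 was at 59.6% and K09A9.6 at 61.2%, and 13% of all genes were at 50% or lower. With the replicated wild-type as the control all 5 were, so the weaker losses depended on the wild-type library. In *hpo-40*, K03H6.5 was at 49.1% and K07E3.2 at 178%, and the other 3 lay between 56.4% and 108%, beside 2.18% of all genes at 50% or lower.

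The nuclease mutants *rde-8* and *nyn-1; nyn-2* each had 4 of the 5 at or under 50%, beside 19.2% and 22% of all genes. RDE-8 is an endonuclease known to act with the Mutator complex on targeted mRNAs, and the NYN proteins are related to it. K03H6.5 was at 3.48% in *rde-8* and at 1.30% in *nyn-1; nyn-2*, its lowest value of all strains, which rested on 3 reads (0.697% without the added 0.5 RPM, exact 95% interval 0.144% to 2.04%). F48B9.8 was at 22.1% and 15.1%, H28G03.2 at 45.9% and 36.8%, and K07E3.2 at 49.3% and 45.5%. K09A9.6 was at 135% and 67.8%, where the medians of all genes were 124% and 131%. Against the replicated wild-type K09A9.6 was at 52.7% and 26.4%, so all 5 genes were at or under 50% in *nyn-1; nyn-2* with that control. The choice of the genes had used that control, so this count is a description.

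Against the single wild-type library, K03H6.5 was the lowest of the 5 genes in *wago-1* and *math-33*. In *wago-1*, a mutant of a secondary siRNA Argonaute, it was at 19% while K07E3.2 was at 156% and H28G03.2 at 143%. The median of all genes in that library was 138%, and 12.3% of all genes were at 50% or lower. In *math-33* K03H6.5 was at 6.88% and K07E3.2 at 28%, while the other 3 were between 104% and 149%. The study's library list gives these animals as asynchronous, and the library was low at many genes, with a median of 52.2% and 45.8% of genes at 50% or lower. In C33G3.6, K03H6.5 was at 38% and F48B9.8 at 44.8%, beside 10.1% of all genes at 50% or lower. In *rsd-2*, *hgo-1*, F37C4.5 and Y57G11C.3 none of the 5 was at or under 50%, where only 2.29%, 1.23%, 1.05% and 1.08% of all genes were, and their values ran from 64.6% (K03H6.5 in F37C4.5) to 144% (K03H6.5 in *hgo-1*). Over the 13 mutants K03H6.5 was at or under 50% in 9, F48B9.8 in 6, K07E3.2 and H28G03.2 in 5 each and K09A9.6 in 2. With the replicated wild-type as the control these counts were 7, 5, 6, 5 and 12, in the order K03H6.5, F48B9.8, K07E3.2, H28G03.2 and K09A9.6. The order of the genes thus rests on the control, above all for K09A9.6. The replicated control was used in the choice of the genes, so counts against it lean towards depletion.

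**Figure D5:**
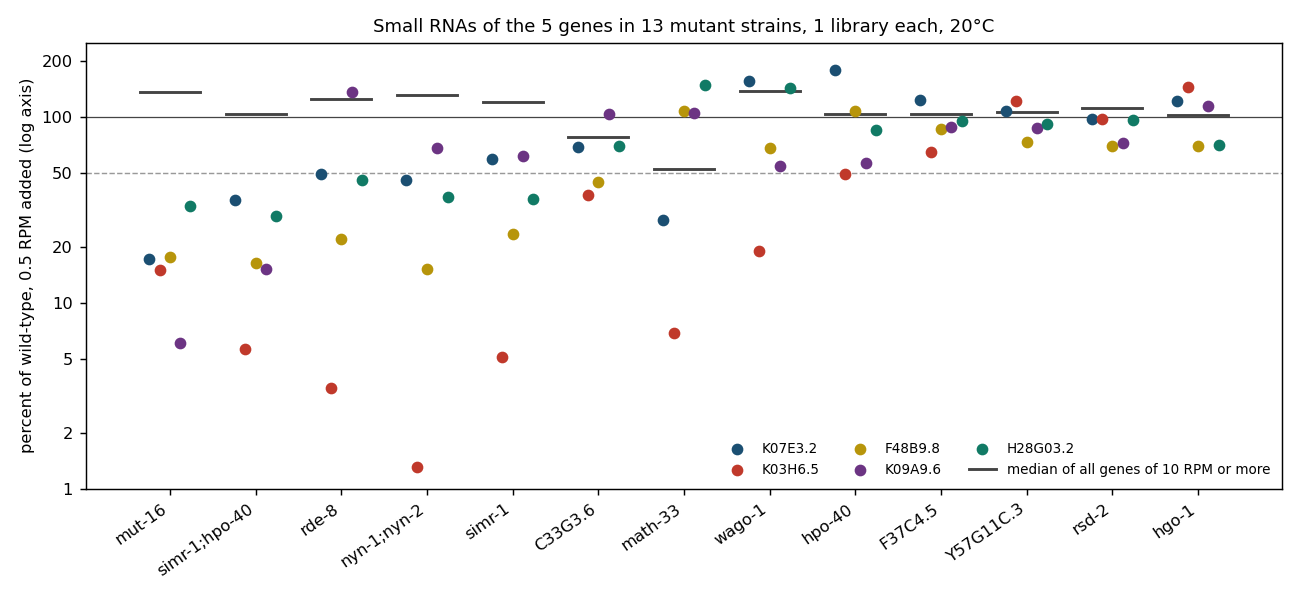
Small RNAs of the 5 genes in 13 mutant strains at 20°C, as percent of the single wild-type library with 0.5 RPM added (log axis), 1 library for each strain, with a bar for the median of 6689 genes and a dashed line at 50%. All 5 points lie under the dashed line in *mut-16* and *simr-1; hpo-40*, and K03H6.5 lies under it in 9 strains.

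Across the 20 replicated libraries the genes followed different courses. The log2 levels of K03H6.5 and F48B9.8 were most alike (Pearson's r = 0.89, n = 20 libraries), then K07E3.2 and K03H6.5 (0.82) and K07E3.2 and F48B9.8 (0.78). H28G03.2 had r between -0.22 and 0.37 with the other 4, although it shares its guide with K09A9.6, with which r was -0.22. These values are descriptions, since the libraries share genotype, generation and the choice of the genes. Among 7949 other genes, the 2 most like K07E3.2 were *fbxa-63* (0.98) and the pseudogene WBGene00014987 (0.98). Those most like K03H6.5 were *irx-1* (0.98) and *eat-16* (0.98), and those most like F48B9.8 were C07A9.9 (0.97) and *clec-238* (0.97). For K09A9.6 they were K09A11.1 (0.96) and *fbxa-170* (0.95), and for H28G03.2 *taf-3* (0.92) and F28H6.4 (0.92). Both of the last pairs are on X.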

How the data were processed

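The submitters made small RNA libraries of the 10 groups (2 biological replicates each) and of 14 strains (1 each), and mRNA libraries of the 10 groups (3 biological replicates each). For small RNAs the authors removed adapters, filtered by quality (FASTX-Toolkit), aligned reads to WS258 with Bowtie2 and counted them on genes with featureCounts, ignoring strand, with reads on equally overlapping genes divided, so the deposited values are expected counts. For mRNA they used Cutadapt, HISAT2 and Salmon on poly(A)-selected libraries and deposited estimated counts per gene. The sources used here do not name the tool behind the mRNA values. Counts had not been normalized.

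Expected counts were rounded and tested with edgeR 4.0.16 (quasi-likelihood, TMM, R 4.3.3) in models of the compared groups, on genes with at least 10 counts in all, with p-values adjusted over all genes tested. Standard errors are the log2 fold change divided by the square root of F. The limits are an adjusted p of 0.05, 2-fold and, for small RNAs, 10 RPM, with RPM scaled to the genome-mapped reads of each library. mRNA levels are TMM-normalised CPM over 30 libraries. The fits recovered changes well above 2-fold that were seeded at well-counted genes in simulated counts. Genes with few reads and changes near 2-fold were not covered by this check. No 2 replicates of a group agreed within sampling noise, over 10 small RNA pairs and 30 mRNA pairs. Other pairs of libraries were not compared.

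The genes, lists and comparisons were chosen with earlier results of these data known. The text names the 5 genes, *simr-1*, the 2 predicted targets nearest the limit, the 3 others called in most contrasts, the 2 genes most like each of the 5 (log2(RPM + 0.5), 20 libraries), genes on the same guides and called genes of the pathway lists. *dys-1* was singled out after its values were seen.

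Same-numbered mRNA replicates deviated together in every pair at generations 7 (r from 0.409 to 0.643) and 10 (0.106 to 0.31). At 20°C (0.013 to 0.138) and generation 2 (0.05 to 0.654) some pairs had r near 0, and at generation 1 r was negative (-0.112 to -0.065). This pairing comes from the replicate numbers in the labels. It did not enter the tests printed above, which are unpaired, and was used in the replicate block alone. Alternatives were DESeq2 1.42.0, its size factors, library size only, other filters and limits, a replicate block, other wild-type controls and leaving out each library. Gene positions are those of WS258 (WBcel235), sequences those of RefSeq WBcel235 with the Ensembl annotation of that build. Other steps ran in Python 3.11.15 (pandas 2.3.3, scipy 1.17.1, numpy 2.4.6, matplotlib 3.10.9).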

Additional observations from a re-analysis of the deposited data

Results flagged for a closer look

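The *simr-1* effect differed between generation 10 and generation 1 at 25°C, by an edgeR interaction term, in 4 cases. For small RNAs the term was -0.73 on the log2 scale at K07E3.2 (SE 0.145, adjusted p = 5.32e-04, edgeR). There the 2 genotypes moved apart in RPM, while the fit showed no rise in wild-type. The term was 2.17 at F48B9.8 (SE 0.374, adjusted p = 1.38e-04, edgeR), where wild-type fell towards the *simr-1* level. For mRNA it was -0.675 at K07E3.2 (SE 0.156, adjusted p = 9.38e-04, edgeR) and -0.55 at H28G03.2 (SE 0.127, adjusted p = 9.38e-04, edgeR), in both of which the wild-type libraries of generation 1 were low. All 3 libraries of *simr-1* lay above all 3 of wild-type at generation 1 for these 2 mRNAs, and the genotypes overlapped at generation 10 for both. At the adjusted p threshold, the small RNA term passed for 38.6% and the mRNA term for 44.9% of all genes. The wild-type libraries of generation 1 also stood apart in oocyte markers and in the share of small RNAs on genes, and the part of this in the 4 values was not tested.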

How the results depend on the processing

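No fitted value past its limits changed direction under any alternative with generation 1 as the base. Counts of the 5 genes past the limits moved as follows. With library size only, small RNAs of 2 genes were depleted at generation 1 and of 1 gene at generation 10, and their interaction called 2. At generation 10, 1 was depleted with DESeq2, with DESeq2 size factors or with no count filter, 4 with no 10 RPM minimum, and between 1 and 2 when 1 library was left out. At generation 2 the alternatives gave 2 to 4. Without the 2-fold limit, mRNA calls between genotypes were 2, 1 and 2 at generations 1, 2 and 7. Under the same setting, 2 mRNAs changed in wild-type and 2 in *simr-1* between generations 10 and 1, 4 in wild-type and 1 in *simr-1* between generation 1 and 20°C, 1 small RNA gene in *simr-1* between generations 10 and 1, and 2 in each interaction. With generation 2 in place of generation 1, chosen after seeing the data, the wild-type mRNA change to generation 10 called 0 and the small RNA interaction 2. Against the replicated wild-type, which the choice of the genes used, 5 genes were at or under 50% in the single *simr-1* and *nyn-1; nyn-2* libraries. That control gave 3 in *math-33*, 2 in *wago-1* and 1 each in Y57G11C.3, C33G3.6, *hgo-1*, F37C4.5 and *rsd-2*. In the single libraries, scaling to reads on genes gave 3 in *rde-8*, 1 in C33G3.6 and 0 in *hpo-40*. The cause of these moves was not tested. Leaving out 1 library at a time kept the counts at 4, 3 and 2 at generations 1, 2 and 7, at 2 for wild-type small RNAs over generations, at 1 for wild-type mRNA over generations and for the small RNA interaction, and at 0 for every other mRNA comparison.

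With a replicate block the counts were 4, 3, 2 and 2 for small RNAs at generations 1, 2, 7 and 10 and 0 for mRNA in every condition, so the block changed no call of the 5 genes. Same-numbered small RNA libraries correlated between -0.14 and 0.364 in their deviations, and mRNA libraries at 20°C and generations 1 and 2 between -0.112 and 0.654. Crossing the numbers at generation 10, chosen after seeing the data because r was -0.14, left 2 genes called.

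Depth limits what can be said of K09A9.6 at 25°C and of K03H6.5 in *simr-1*. With 2 libraries a group the spread is poorly known, and wild-type at generation 1 cannot be told apart from whatever set its libraries apart.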
